A study of Mus musculus with 6 samples.

Results

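Keratins are the intermediate filament proteins of epithelial cells. The genes described here are the protein-coding keratin genes whose symbol is Krt followed only by digits, 49 of the 55450 genes in the deposited tables, with the keratin-associated proteins left out. They were measured by RNA sequencing in 6 tumours that grew after MTE-Ras cells, a cancer line from mouse tracheal epithelium transformed with oncogenic RAS, were put under the skin of the right flank of C57BL/6 mice. The tumours of 3 mice were injected with phosphate-buffered saline (PBS) and those of another 3 with PV-10, a solution of the dye rose bengal given into the lesion. The tumours of both groups carried the same RAS-transformed cells, and the dose, the time after injection, the age of the mice and whether the line is 1 clone are not given in the sources used here. Whole tumours were sequenced, so cells of the host are included, and a lower level of a keratin can stand for fewer epithelial cells or for less RNA per cell, which cannot be told apart.

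A keratin filament is built from pairs of one type I and one type II protein, so an epithelial cell needs both types. Simple, single-layered epithelia make Krt8 and Krt18 with Krt7 and Krt19, the basal layer of stratified epithelia makes Krt5 and Krt14, cells that leave the basal layer switch to others such as Krt1 and Krt10, and the hair follicle has a large set of its own. In mice the genes lie in 2 clusters. By the mm10 positions of Gencode release M21, 25 type I genes lay on chromosome 11 within 1.04 Mb, and the 23 type II genes lay on chromosome 15 within 0.68 Mb together with 1 type I gene, Krt18. In mm10, Krt8 (ENSMUSG00000049382.10, chromosome 15, 101996698 to 102004482, minus strand) and Krt18 (ENSMUSG00000023043.7, chromosome 15, 102028180 to 102032027, plus strand) stood head to head, 23.7 kb apart. Grouped by where they are known to be made, the 49 were 5 simple, 4 basal, 18 differentiated (suprabasal and other specialised epithelia), 8 of the hair sheath, 13 of the hair shaft and Krt88, which was at 0 counts in each of the 6 tumours.

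The libraries summed to between 36730318 and 98717951 counts. PV-10 tumour 3 stood nearer to the PBS tumours, with log2 CPM (counts scaled to a common library size) correlations of 0.909 to 0.93 with them across genes and of 0.822 to 0.874 with the other PV-10 tumours. Reads from genes that these tissues are not known to use differed between libraries: of 1466 olfactory and vomeronasal receptor genes, 11.9%, 23.2% and 16.4% had at least 1 count in PBS tumours 1, 2 and 3, and 90.3%, 66.8% and 27.1% in PV-10 tumours 1, 2 and 3. The epithelial label was only partly met: besides keratins, the cadherin gene Cdh1 was at 1.99 to 2.53 TPM (a transcript level scaled for gene length and library size) in PBS tumours, and the adhesion gene Epcam at 0 to 0.20 TPM. Vim, the intermediate filament gene of mesenchymal cells, was at 2313, 2584 and 2533 TPM in PBS tumours 1, 2 and 3, and all keratins together came to 15.9% to 20.8% of it there.

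Most keratin RNA of these tumours came from simple keratins. Krt18, Krt8, Krt7 and Krt19 made up 96.9%, 96.9% and 97.5% of all keratin TPM in PBS tumours 1, 2 and 3, and 91.8%, 89.8% and 96.3% in PV-10 tumours 1, 2 and 3. In PBS tumours the order was Krt18 at 203 ± 19.5 TPM (mean ± SD, n = 3), Krt8 at 150 ± 18.1 TPM, Krt7 at 46.4 ± 6.28 TPM and Krt19 at 42.0 ± 11.8 TPM. Krt7 and Krt19 lay within each other's spread. The next gene in order over the 6 tumours, Krt10, was at 3.93 ± 1.45 TPM in PBS tumours. All simple keratins together came to 442 ± 37.2 TPM in PBS and 250.1 ± 82 TPM in PV-10 tumours (n = 3 each). In TPM the groups did not overlap, while in TMM-scaled CPM, whose scaling is given with Krt8, the sums were 678 to 1077 in PBS and 768 to 958 in PV-10 tumours.

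**Figure D1:**
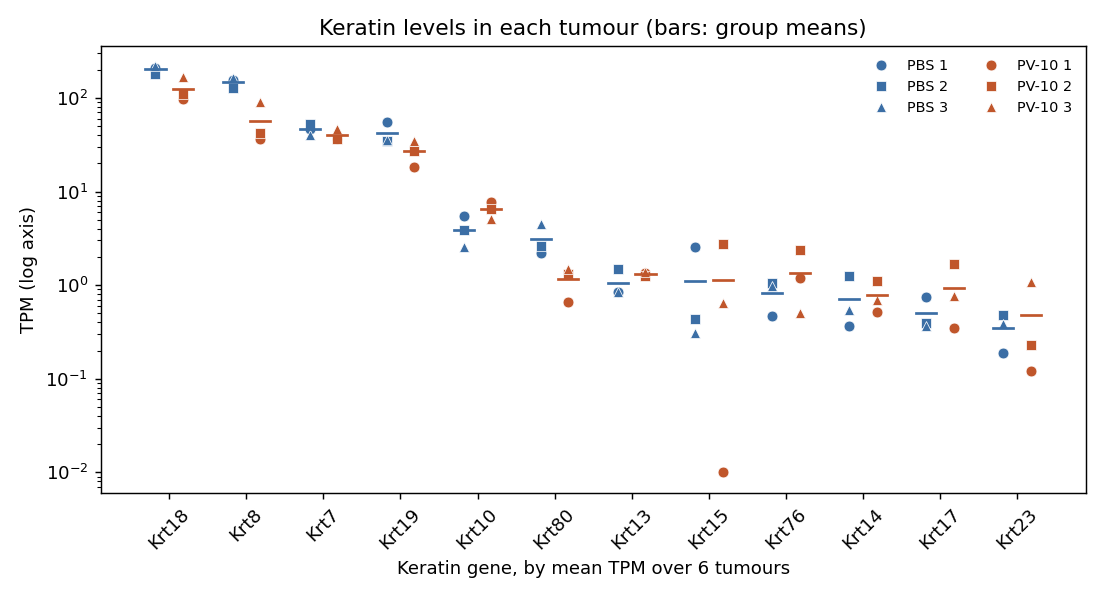
TPM on a log axis (vertical) of the 12 keratin genes with the highest mean over the 6 tumours (horizontal), one symbol per tumour, PBS in blue and PV-10 in brown-orange, with bars at the group means. The 4 simple keratins on the left lie far above the others, and the 3 PV-10 points of Krt8 lie below its 3 PBS points.

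For Krt18, Krt8 and Krt7, which carry most of this RNA, DNA ahead of the RefSeq start is given. By Gencode that DNA lies inside the gene for Krt7, which begins at 101411043. The stretches come from RefSeq's promoter windows (GRCm38.p6, the 250 bases before the RefSeq start), of which the bases outside annotated untranslated regions are printed. Each is written 5′ to 3′ on the gene's strand, and capitals mark CACCTG, an E-box bound by SNAIL and ZEB family repressors.
Krt18, chr15:102027966-102028179, plus strand: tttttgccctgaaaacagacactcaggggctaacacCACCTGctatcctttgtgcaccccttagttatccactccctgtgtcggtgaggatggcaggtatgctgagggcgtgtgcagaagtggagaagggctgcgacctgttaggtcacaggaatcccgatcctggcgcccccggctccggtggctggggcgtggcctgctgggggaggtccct
Krt8, chr15:102004483-102004592, minus strand: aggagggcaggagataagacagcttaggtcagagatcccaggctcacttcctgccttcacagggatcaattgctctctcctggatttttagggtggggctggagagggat
Krt7, chr15:101412153-101412401, plus strand: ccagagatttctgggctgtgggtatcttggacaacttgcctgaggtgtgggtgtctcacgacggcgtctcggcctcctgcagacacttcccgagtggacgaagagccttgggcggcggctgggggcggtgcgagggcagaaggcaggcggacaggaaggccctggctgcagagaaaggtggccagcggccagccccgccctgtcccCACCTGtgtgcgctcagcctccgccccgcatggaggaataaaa

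The windows of Krt18 and Krt7 each held 1 CACCTG on the gene's own strand, with its first base 214 and 44 bases before the RefSeq start. The 30 bases around each are set side by side for comparison.
Krt18, chr15:102027990-102028019: aggggctaacacCACCTGctatcctttgtg
Krt7, chr15:101412347-101412376: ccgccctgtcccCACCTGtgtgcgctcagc
Searched on both strands, CACCTG was in 17.3% of 32536 promoter windows of this length and in 14 of the 35 keratin promoters in the table. The TATA box letters TATAAA were in 16 of the 35, against 12.3% of all windows, but in none of the windows of Krt18, Krt8 and Krt7. The GC box GGGCGG occurred in 2 of the 35, against 33% of all, and Krt7 was one of them with 4 matches. The AP-1 letters TGANTCA were in 1 of the 35, against 6.73% of all, and in none of the 3. These are matches of letters only. Of the 49 keratins 35 had a window in the RefSeq table, and Krt19 and Krt80 did not.

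Tested across all genes, no keratin passed. Of the 49, 26 had enough reads to be tested, and the PV-10 tumours were higher for 0 and lower for 0 of them at an adjusted p under 0.05 (edgeR quasi-likelihood test, Benjamini-Hochberg over 22056 genes), against 3.17% of all tested genes higher and 1.92% lower. At an unadjusted p under 0.05 there were 6 of 26 (23.1%), against 30% of all genes. DESeq2 called 6 higher (Krt1, Krt7, Krt10, Krt13, Krt71 and Krt76) and 0 lower, beside 15.7% of all genes higher and 10.2% lower. The median log2 change was 1.25 over the 26 and 0.303 over all tested genes, but a gene with few reads in PBS tumours entered the 26 through its PV-10 reads, and over the 9 keratins with a mean of at least 1 TPM the median was 0.0858. The scale also matters: the median of all genes was 0.212 with library size alone and -0.213 on log2(TPM + 1), so changes are read against it. Without PV-10 tumour 3, edgeR called 12 keratins higher and 1 lower, beside 25% of all genes higher and 16.4% lower.

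**Figure D2:**
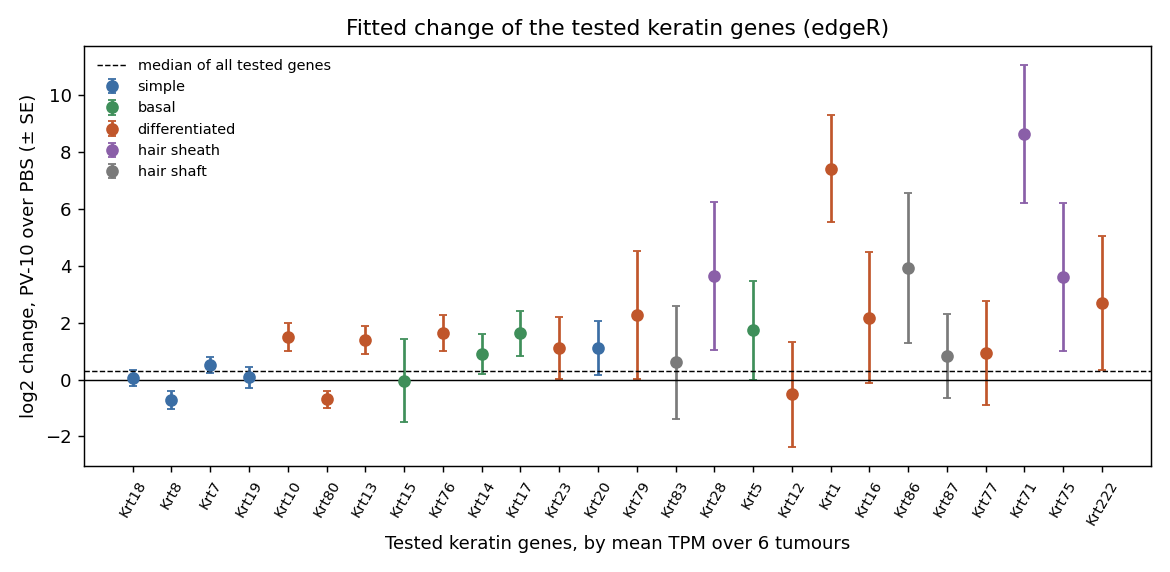
Fitted log2 change of PV-10 over PBS with its SE (vertical) for the 26 tested keratin genes, ordered by mean TPM (horizontal) and coloured by class, with a dashed line at the median of all tested genes. The 4 abundant simple keratins lie between -0.71 and 0.51 with short error bars, and those on the right, with few reads, have wide ones.

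Krt8, the type II partner in simple epithelia, had a lower TPM in each PV-10 tumour. It was at 154.9, 129.5 and 164 TPM in PBS tumours 1, 2 and 3 and at 36.2, 42.1 and 91.7 TPM in PV-10 tumours 1, 2 and 3. No PV-10 tumour reached a PBS tumour on this scale, as for 31% of all tested genes. In CPM scaled by TMM, edgeR's scaling factor, it was at 394, 238 and 341 in PBS and at 157, 169 and 270.1 in PV-10 tumours, where PV-10 tumour 3 lay above PBS tumour 2. The log2 change was -0.71 (SE 0.32, edgeR adjusted p = 0.175), and it was negative in each of 19 alternative settings, from -1.52 to -0.25, the latter with PV-10 tumour 3 alone, a setting of 1 tumour chosen after seeing the data. On log2(TPM + 1) it passed (-1.50, limma adjusted p = 0.0249), as it did on log2(TPM + 0.1) and, at -0.99, without PV-10 tumour 3 (edgeR adjusted p = 0.0167). In these settings 17.2%, 16.2% and 16.4% of all genes were called lower, and on the TPM scales only 1.14% and 1.9% were called higher. The adjusted p of Krt8 ran from 0.0167 to 0.441 over the other settings and was 0.727 with PV-10 tumour 3 alone.

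For Krt18, its type I partner, the comparison turned on the scale. It was at 210.3, 181 and 219 TPM in PBS tumours and at 97.4, 111 and 169.6 TPM in PV-10 tumours, so that on this scale too the groups did not overlap. In TMM-scaled CPM it was at 378, 235 and 321 in PBS and 300.3, 315 and 354 in PV-10 tumours, where the groups overlapped and the log2 change was 0.05 (SE 0.28, edgeR adjusted p = 0.91). Its direction turned with the scale, to -0.72 on log2(TPM + 1).

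The ratio of Krt8 to Krt18 within a library needs no scaling between libraries. Krt8 counts were 1.04, 1.01 and 1.06 times the Krt18 counts in PBS tumours 1, 2 and 3. They were 0.524, 0.535 and 0.763 times the Krt18 counts in PV-10 tumours 1, 2 and 3. The PBS tumours agreed closely, each PV-10 tumour lay below them, and PV-10 tumour 3 was the nearest to them. On the log2 scale the ratio was 0.055 ± 0.036 in PBS and -0.74 ± 0.31 in PV-10 tumours (mean ± SD, n = 3 each), a difference of -0.80 (exact two-sided permutation test p = 0.1, the smallest that 3 against 3 can give). The ratio was looked at after the values were seen. It was one of 7 such ratios of abundant keratins, over which the adjusted p was 0.175 (exact permutation, Benjamini-Hochberg). From TPM the difference was -0.79, and it was -0.74 once each library's trend with gene length was removed. Leaving out each tumour in turn gave -0.97 to -0.70.

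**Figure D3:**
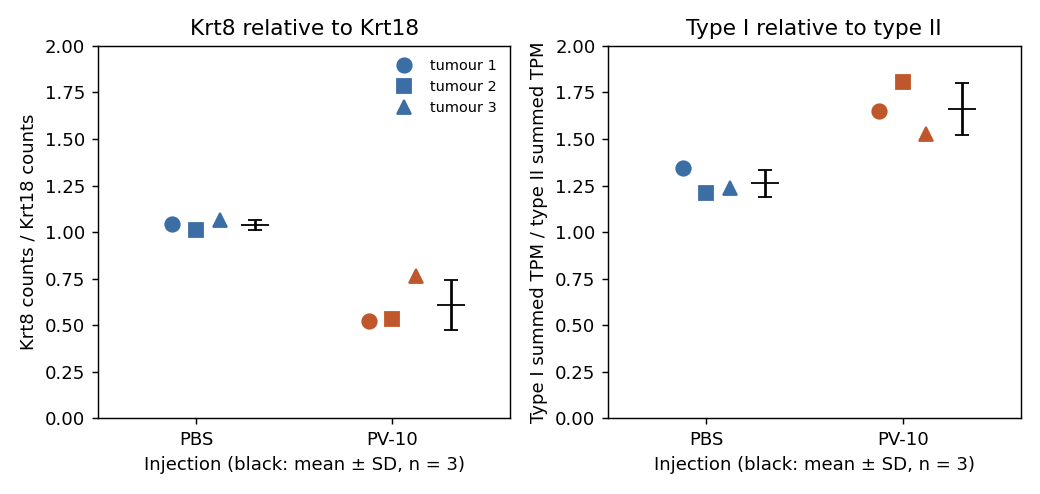
Left, Krt8 counts over Krt18 counts, and right, summed TPM of type I over type II keratins (vertical axes, from 0), one symbol per tumour by injection group (horizontal), with the mean and SD of 3 tumours in black. Every PV-10 tumour lies below the PBS tumours on the left, at 0.763 or less, and above them on the right, at 1.53 or more.

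Genes that could share reads with Krt8 had few. Krt8-ps, a processed pseudogene, had counts equal to 0.407% to 0.765% of those of Krt8 across the 6 tumours, with both groups in that range. Gm36026, a long noncoding RNA gene on the opposite strand at Krt8, had 176 to 508 counts, against 6155 to 35336 for Krt8. The libraries kept strand, but the strand setting of the counting was not given in the sources used here.

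Krt8 was also low against the other simple keratins. The log2 ratio of Krt8 to Krt7 counts was 0.81 ± 0.29 in PBS and -0.42 ± 0.45 in PV-10 tumours, and that of Krt8 to Krt19 differed by -0.89 (exact permutation p = 0.1 for each, adjusted p = 0.175). Ratios among the other 3 differed less: Krt7 to Krt18 by 0.44 (exact permutation p = 0.2), Krt19 to Krt18 by 0.097 (exact permutation p = 0.8) and Krt7 to Krt19 by 0.34 (exact permutation p = 0.5), all log2. Nearly all type II RNA was Krt8 and Krt7, and the sum of type I over type II TPM was 1.35, 1.21 and 1.24 in PBS tumours and 1.65, 1.81 and 1.53 in PV-10 tumours. Type I keratin RNA exceeded type II in all 6 tumours, by more in each PV-10 tumour (exact permutation p = 0.1, two-sided). That p is unadjusted and the smallest that 3 against 3 can give. The sums rest mainly on the same genes as the Krt8 ratios, so this is not a separate result.

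Krt7, a type II keratin of ducts and airways (ENSMUSG00000023039.17, mm10 chromosome 15, 101411043 to 101430313), was at 46.2, 52.8 and 40.2 TPM in PBS and at 36.8, 36.8 and 46.5 TPM in PV-10 tumours. The groups overlapped. Its log2 change was 0.51 (SE 0.27, edgeR adjusted p = 0.236) from counts, 0.62 with DESeq2, where it passed (adjusted p = 0.048), and -0.21 on log2(TPM + 1). In PV-10 tumour 1, Krt7 TPM was 1.02 times Krt8 TPM, where in PBS tumours it was 0.244 to 0.407 times.

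Krt19, the type I keratin without the usual tail domain (ENSMUSG00000020911.14, mm10 chromosome 11, 100140810 to 100148665), was at 55.6, 34.9 and 35.4 TPM in PBS and at 18.4, 27.4 and 35.0 TPM in PV-10 tumours. PV-10 tumour 3 lay level with the lower PBS tumours. The log2 change was 0.09 (SE 0.36, edgeR adjusted p = 0.89) and turned to -0.63 on log2(TPM + 1). Krt20, the fifth simple keratin, known from gut and urothelium, stayed between 0.09 and 0.58 TPM in all tumours.

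Basal keratins were low in every tumour, summing to 2.41 ± 1.3 TPM in PBS and 3.05 ± 2.40 TPM in PV-10 tumours. Krt5, the type II basal keratin, was at 0.19, 0 and 0.10 TPM in PBS and 0.25, 0.18 and 0.16 TPM in PV-10 tumours. Its partner Krt14 was at 0.37, 1.24 and 0.54 TPM in PBS and 0.51, 1.12 and 0.70 TPM in PV-10 tumours. The PV-10 values of Krt14 lay within its PBS range, and Trp63, which encodes the basal cell transcription factor p63, was at 0.06 to 0.40 TPM in all 6 tumours. Krt15, found in basal and hair follicle stem cells, was at 2.54, 0.43 and 0.31 TPM in PBS and 0.01, 2.75 and 0.65 TPM in PV-10 tumours, with the lowest and the highest value in the same group. Krt17, made in skin appendages and wounded epithelium, was at 0.75, 0.39 and 0.37 TPM in PBS and 0.35, 1.69 and 0.77 TPM in PV-10 tumours. None of the 4 basal genes passed (log2 changes -0.036 to 1.73, edgeR adjusted p = 0.203 to 0.99).

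The 18 differentiated keratins summed to 9.91 ± 0.427 TPM in PBS and 12 ± 1.91 TPM in PV-10 tumours, and 5 of them reached 1 TPM in some tumour. In TPM the sums of the groups overlapped. In TMM-scaled CPM they did not, at 16.3 to 20.2 in PBS and 21.7 to 42.1 in PV-10 tumours, with PV-10 tumour 3 the lowest of its group. Krt80, a type II keratin found in many epithelia (ENSMUSG00000037185.9, mm10 chromosome 15, 101347444 to 101370162), was at 2.22, 2.61 and 4.49 TPM in PBS and 0.66, 1.33 and 1.47 TPM in PV-10 tumours. The PV-10 tumours were all lower, in TPM and in TMM-scaled CPM. Its log2 change was -0.69 (SE 0.30, edgeR adjusted p = 0.162), negative in each of 19 settings and called in none of them. Gm35853, on the opposite strand there, had 38 to 156 counts, against 255 to 1322 for Krt80. Against Krt18 counts, Krt80 counts were lower in PV-10 tumours by a log2 difference of -0.76 (exact permutation p = 0.1).

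Krt10, the type I keratin of suprabasal skin (ENSMUSG00000019761.10, mm10 chromosome 11, 99385254 to 99389364), was at 5.09, 2.14 and 1.61 TMM-scaled CPM in PBS and 10.3, 9.36 and 5.20 in PV-10 tumours. The groups lay just apart, PV-10 tumour 3 being only slightly above PBS tumour 1, and in TPM they overlapped. The log2 change was 1.49 (SE 0.49, edgeR adjusted p = 0.0803), positive in each of 19 settings, and called in 4 of them. Krt13, the type I keratin of oral and oesophageal lining, was at 1.48, 2.23 and 0.994 TMM-scaled CPM in PBS and 4.87, 4.11 and 3.34 in PV-10 tumours (log2 change 1.39, SE 0.49, edgeR adjusted p = 0.0966). Krt13 did not overlap in CPM either, but in TPM it did, at 0.84 to 1.47 against 1.24 to 1.37. DESeq2 called it higher (adjusted p = 0.0347).

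Krt76, a type II keratin of the palate and other oral lining, was at 0.47, 1.05 and 0.97 TPM in PBS and 1.18, 2.38 and 0.50 TPM in PV-10 tumours. PV-10 tumours 1 and 2 were high and PV-10 tumour 3 was within the PBS range, and with that tumour alone the log2 change of Krt76 went from 1.65 to -0.22. It did not pass in the fit reported (edgeR adjusted p = 0.112). It was called higher by DESeq2 (adjusted p = 0.0463) and without PV-10 tumour 3 (edgeR adjusted p = 0.00931). Krt23, a type I keratin of several glandular epithelia, was at 0.19, 0.48 and 0.38 TPM in PBS and 0.12, 0.23 and 1.09 TPM in PV-10 tumours, highest in PV-10 tumour 3. The 37 keratins outside the 12 with the highest mean stayed at or under 0.75 TPM in each tumour.

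Krt1, the type II partner of Krt10 in skin, was nearly absent from PBS tumours, with 0, 2 and 0 counts, and had 68, 101 and 39 counts in PV-10 tumours 1, 2 and 3. In level this was 0.17, 0.48 and 0.12 TPM in PV-10 tumours. Each PV-10 tumour thus had more Krt1 reads than any PBS tumour, PV-10 tumour 3 included. A mean olfactory or vomeronasal receptor gene was at 0.117, 0.147 and 0.016 TPM there. Per scaled read, 208 counts pooled over PV-10 tumours against 2 gave a ratio of 164, which rests on 2 reads of PBS tumour 2. Its 95% interval of 45 to 1370 (exact binomial) covers counting error only and not the spread between tumours. Krt1 entered the test through its PV-10 reads, so this ratio and the fitted values are a description. The fitted log2 change was 7.42 (SE 1.90) with an edgeR adjusted p = 0.0523. The adjusted p ran from 6.95e-05 with DESeq2 to 0.239 without PV-10 tumour 2 (edgeR). With PV-10 tumour 3 alone the log2 change was 5.77. Each setting that called any keratin higher called Krt1, while the fit reported and other settings did not. Both Krt1 and Krt71, below, were picked for description after their values were seen.

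Krt1 and Krt10 are also markers of the epidermis, which lies over a flank tumour. Over the 7 epidermis markers (Krt1, Krt10, Krt2, Lor, Flg, Dsg1a and Sbsn) the summed level was 3.40 to 6.93 TPM in PBS and 6.45 to 10.3 TPM in PV-10 tumours. Krt10 alone made up most of each sum, at 5.42, 3.84 and 2.53 TPM in PBS and 7.73, 6.55 and 5.07 TPM in PV-10 tumours. The sum is thus not a measure of epidermis separate from Krt10. In the edgeR fit over all 6 tumours 0 of the 6 tested were called, against 5.09% of all tested genes. DESeq2, read here for the keratins only, called Krt1 and Krt10. At 0 counts were 4, 2 and 3 of the 7 in PBS tumours 1, 2 and 3 and 0, 0 and 2 in PV-10 tumours 1, 2 and 3. The 6 skeletal muscle markers summed to between 2.48 and 16 TPM in PBS and 19.6, 108 and 2.89 TPM in PV-10 tumours. Of the 9 hair follicle markers measured, 7, 5 and 7 were at 0 in PBS and 0, 2 and 4 in PV-10 tumours, and their sum was 0.14 to 1.1 TPM in PBS and 1.49, 2.81 and 0.32 TPM in PV-10 tumours. Fibroblast markers summed to 333 to 1015 TPM in PBS and 316 to 516 TPM in PV-10 tumours, and leukocyte markers to 297 to 390.2 TPM and 377 to 440 TPM. In the same edgeR fit 0 genes of these lists and of the sebaceous gland and adipocyte lists were called. DESeq2 was read for keratins only, and of those in the hair follicle list it called Krt71. Its calls for the other markers were not looked at. The part of these tissues in the keratin values was not tested.

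The 21 hair keratins, 8 of the sheath and 13 of the shaft, were at or near 0 in PBS tumours and more often detected in PV-10 tumours 1 and 2, as were the olfactory and vomeronasal receptor genes. Of the 21, 3, 5 and 6 had at least 1 count in PBS tumours 1, 2 and 3 (14.3%, 23.8% and 28.6%). In PV-10 tumours 1, 2 and 3 the numbers were 19, 15 and 6 (90.5%, 71.4% and 28.6%). Set beside the olfactory and vomeronasal shares given above, the hair keratins and the receptor genes were within 5 percentage points of each other in 5 tumours, while PBS tumour 3 had 28.6% against 16.4%.

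**Figure D4:**
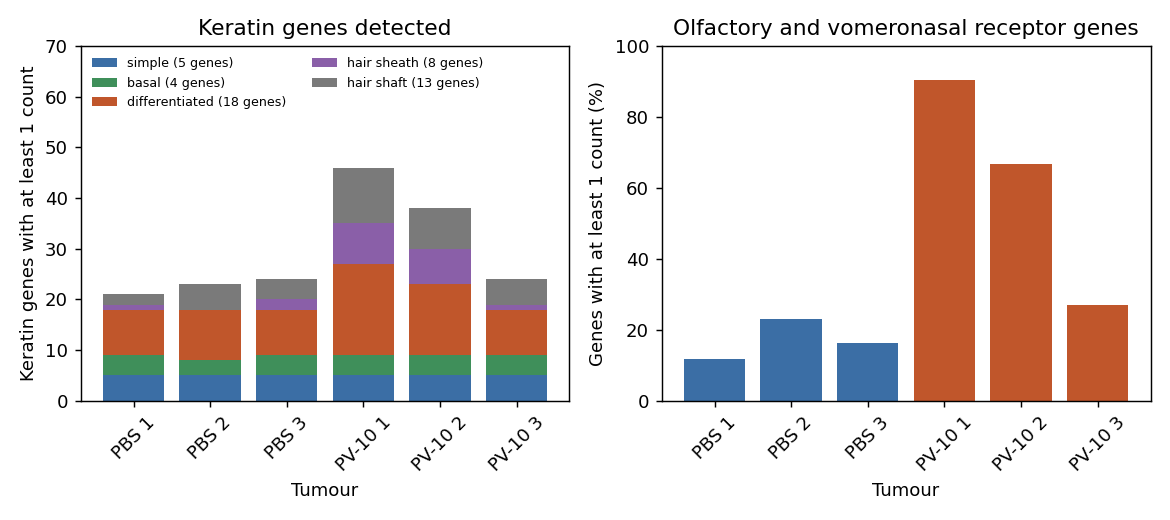
Left, number of keratin genes with at least 1 count in each tumour, stacked by class, and right, percentage of 1466 olfactory and vomeronasal receptor genes with at least 1 count in each tumour (both axes from 0). PV-10 tumours 1 and 2, with 46 and 38 keratin genes detected, also have the highest bars on the right, at 90.3% and 66.8%.

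The mean levels are set side by side here. A hair keratin averaged 0.0262, 0.0243 and 0.00952 TPM in PBS tumours and 0.138, 0.233 and 0.0214 TPM in PV-10 tumours 1, 2 and 3, and a receptor gene 0.012, 0.017 and 0.00643 TPM in PBS and 0.117, 0.147 and 0.016 TPM in PV-10 tumours. No hair keratin exceeded 0.75 TPM in any tumour. Of all 49 keratins, 17 had 0 counts in every PBS tumour and some in a PV-10 tumour, and 3 of these, Krt31, Krt32 and Krt71, had reads in PV-10 tumour 3. Of all 55450 genes, 19163, 22895 and 23068 had at least 1 count in PBS tumours 1, 2 and 3. In PV-10 tumours 1, 2 and 3 the numbers were 35314, 28343 and 22764. The share of all genes with the pattern of the 17 was not counted, so the 17 are not read as particular to keratins. A count of 0 allows up to 3 counts, which is 0.029 to 0.0341 TMM-scaled CPM in PBS tumours. Whether the same reads account for both sets of genes was not tested.

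Krt71, a type II keratin of the inner root sheath, was one of those 3, with 41, 37 and 17 counts in PV-10 tumours and 0 in each PBS tumour. Against 3 counts per PBS library its mean was at least 20.3-fold higher, if each read is a separate molecule, and it did not pass (edgeR adjusted p = 0.0677), having entered the test, like Krt1, through its PV-10 reads. DESeq2 and the fit without PV-10 tumour 3 called it higher.

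Counted over the 26 tested keratins, separation of the groups was not more common than elsewhere. In TMM-scaled CPM the PV-10 tumours all lay above the PBS tumours for 4 keratins (15.4%), Krt1, Krt71, Krt10 and Krt13, against 22% of all tested genes, and all below for 1 (3.85%), Krt80, against 16.8%. In TPM they lay above for 2 (7.69%), Krt1 and Krt71, against 9.58% of all genes, and below for 3 (11.5%), Krt18, Krt8 and Krt80, against 31%.

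Of the keratins whose symbols end in a letter, which the rule leaves out, 2 of 4 were tested and 0 passed. Krt6a, made in wounded and rapidly growing epithelium, was at 0, 0.10 and 1.55 TPM in PBS and 0.15, 0.50 and 0.26 TPM in PV-10 tumours, its highest value being in PBS tumour 3.

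The genes that anchor or regulate keratins included 2 that passed. Of 22 genes listed here as linkers or regulators of keratins, 20 were tested, 2 fell, 0 rose and 18 did not pass (edgeR). The median log2 change was -0.77, against 1.92% of all tested genes lower, 3.17% higher and a median of 0.303. The list held Krtcap2 (log2 change 0.015), for which a role at keratins was not checked. Plec, which encodes plectin, the cytolinker that ties keratins to hemidesmosomes, fell from 142, 202 and 177 TPM in PBS to 9.62, 14.9 and 33.2 TPM in PV-10 tumours (log2 change -2.49, SE 0.37, edgeR adjusted p = 0.0443). Dst, the gene of dystonin, whose epithelial form BPAG1e has the same role, fell from 35.2, 67.8 and 58.1 TPM to 4.85, 7.64 and 11.5 TPM (log2 change -2.20, SE 0.31, edgeR adjusted p = 0.0443). Ppl, for periplakin, another cytolinker of the plakin family, was at 12 ± 1.48 TPM in PBS and 2.50 ± 1.82 TPM in PV-10 tumours and just missed (edgeR adjusted p = 0.0505). For these 3 plakins all PV-10 tumours lay below the PBS tumours in TPM, as for 31% of all tested genes. The groups overlapped for the other plakins of the list, Dsp (log2 change -0.85), Evpl (0.29) and Eppk1 (1.00). Without 1 PBS tumour, or without PV-10 tumour 1 or 2, edgeR called at most 5 genes in all. Plec and Dst have very long transcripts, and the slope of log2 level on gene length was 0.0583 to 0.117 in PBS and -0.114 to -0.0514 in PV-10 tumours. With that trend removed, edgeR called 0 genes of the whole table, with 5936 at an unadjusted p under 0.05.

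Of 15 other intermediate filament genes tested with edgeR 0 were called, against 5.09% of all tested genes. Their log2 change was positive for 7 and negative for 8, with a median of -0.0103, against 0.303 over all tested genes. Lmna, for the nuclear lamins A and C, was at 170.3, 194 and 194 TPM in PBS and 30.3, 33.7 and 76.2 TPM in PV-10 tumours (log2 change -1.29, edgeR adjusted p = 0.05, just above the threshold). Nes, for nestin, and Lmnb1, for lamin B1, also lay lower in each PV-10 tumour, with log2 changes of -2.05 and -0.87 (edgeR adjusted p = 0.0575 and 0.0779). Nefh and Gfap lay higher in each PV-10 tumour, with log2 changes of 5.77 and 4.30 (edgeR adjusted p = 0.0946 and 0.2). Both stayed at or under 0.31 TPM. Vim was at 705, 805 and 1926 TPM in PV-10 tumours 1, 2 and 3, below the PBS tumours in TPM but overlapping them in CPM (log2 change -0.42, edgeR adjusted p = 0.394). Keratin TPM was 29.2%, 30.1% and 18.5% of Vim TPM in PV-10 tumours 1, 2 and 3, so that PV-10 tumour 3 lay in the PBS range. Among 12 epithelial markers 9 were tested and 0 passed with edgeR over all 6 tumours, against 5.09% of all tested genes, though Krt8, which is one of them, passed in the settings given above. Of the 12, 5, 4 and 3 were at 0 counts in PBS and 1, 2 and 2 in PV-10 tumours. Cdh1, for E-cadherin, was at 2.43, 1.99 and 2.53 TPM in PBS and 0.86, 0.43 and 0.80 TPM in PV-10 tumours, with no overlap (log2 change -1.12, edgeR adjusted p = 0.0627). Krt8 and Cdh1 were the only 2 of the 9 with a negative log2 change. The other 7 were positive, and the median over the 9 was 1.48, against 0.303 over all tested genes. Apart from Krt18, those 7 had few reads. Of the 19 cornified envelope genes, which are made with Krt1 and Krt10 in skin, 9 were tested and 0 passed.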

How the data were processed

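Total RNA of 6 tumours, 1 per mouse, was sequenced as strand-specific pairs of 100 bases. Per the labels' protocols and the submitters' processing notes, the authors used cutadapt 1.8.1, STAR 2.7.7a on mm10, and RSEM 1.3.0 with Gencode M21. The authors deposited RSEM expected counts, here whole numbers, and TPM per gene. From the counts, edgeR 4.0.16 in R 4.3.3 (filterByExpr, TMM, robust quasi-likelihood test) compared PV-10 with PBS over all 22056 genes that passed, and changes were called at a Benjamini-Hochberg adjusted p under 0.05. Limma 3.58.1 and DESeq2 1.42.0 served as alternatives. Replicate numbers did not pair the tumours (correlations -0.0486 to 0.0722), so no block was used. Values per tumour are given for the 12 keratins with the highest mean TPM and for those of at least 0.5 TPM whose groups do not overlap, and also for Krt1, Krt5 and Krt71, which fall outside that rule. The members and lists were chosen with earlier results of these data known. A count of 0 was read as up to 3 counts. Intervals cover counting error only. One sequence match is not reported here.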

Additional observations from a re-analysis of the deposited data

How the results depend on the processing

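No keratin was called in the fit reported. Shares of all genes called the same way stand in brackets. The number called higher was 6 with DESeq2 (15.7%), 3 with no low-count filter (5.2%) and 2, Krt1 and Krt10, with the replicate block (4.78%). Only Krt1 was called higher with DESeq2 size factors (6.66%), library size alone (4.44%) and a non-robust fit (4.11%). The same held on log2(TPM + 0.1) (1.9%) and over protein-coding genes alone (9.48%). Leaving out 1 tumour gave 0 to 12, the 12 without PV-10 tumour 3 (25%). Lower calls were 1, Krt8, on log2(TPM + 1) (17.2%) and on log2(TPM + 0.1) (16.2%). With a tumour left out they were 0 to 1, the 1 without PV-10 tumour 3 (16.4%). The cause was not tested.

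Of 228 named log2 changes under alternatives, 193 kept direction and side of the threshold, 11 newly passed and 24 reversed.
The log2 change of Krt15 (-0.036 as reported) became 0.098 with DESeq2, 0.094 with its size factors, 0.15 with a mean count of at least 50 and 0.14 over protein-coding genes alone. That of Krt18 (0.054) became -0.039 with library size alone, -0.023 with no filter, -0.72 on log2(TPM + 1), -0.73 on log2(TPM + 0.1) and -0.061 with the length trend removed. Krt7 turned to -0.21 on both TPM scales (-0.207 and -0.212). Krt19 turned to -0.63, -0.65 and -0.077 on log2(TPM + 1), on log2(TPM + 0.1) and with the length trend removed. Leaving out 1 tumour gave -2.15 to 1.67 for Krt15, -0.145 to 0.18 for Krt18, -0.155 to 0.54 for Krt19 and -0.012 to 1.54 for Krt23. Krt76 turned to -0.22 with PV-10 tumour 3 alone against PBS. That setting and those of the Krt8 to Krt18 ratio were chosen after seeing the data.

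Among all genes edgeR called 1122 and, without PV-10 tumour 3, 6884 higher and 4515 lower. The 23 keratins not tested had too few reads for a comparison and reached at most 0.75 TPM.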
